A study of Mus musculus with 4 samples.

Results

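Transcription factors that carry the T cell receptor signal into the nucleus were examined at their own genes. The 10 genes were Nfatc1, Nfatc2, Nfatc3, Nr4a1, Nr4a2, Nr4a3, Egr1, Egr2, Egr3 and Tox. Open chromatin was read over each gene's RefSeq record and 30 kb on each side. Peaks that shared at least 1 base were merged across libraries, which gave 181 regions at these loci of 93679 in the genome, or 0.193%. Regions within 1 kb of an annotated GENCODE start of the gene were called promoter regions (17), those within 1 kb of a start of another gene were kept apart (10), and the remaining 154 were called distal.

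The regions came from ATAC-seq, which marks DNA open to the Tn5 transposase. Spleens of 7-week-old male wild-type C57BL/6 mice gave naive CD4+ T cells, sorted as high in CD62L, low in CD44 and negative for CD25, which were cultured for 48 h. All cultures received plate-bound anti-CD3 at 5 µg/ml, soluble anti-CD28 at 1 µg/ml, TGF-b1 at 5 ng/ml and IL-2 at 10 ng/ml. The iTreg group (2 libraries) received no IL-4 and the iTreg+IL-4 group (2 libraries) received IL-4 at 15 ng/ml, so IL-4 was the only labelled difference. Every culture was stimulated, and no unstimulated library was analysed here, so the effect of stimulation itself was not measured. Each library came from 50000 cells measured together, so a region open in fewer cells and a region less open per cell cannot be told apart.

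In T cells, calcium entry after receptor engagement activates the phosphatase calcineurin, which sends NFAT proteins to the nucleus, where they often bind together with AP-1. Egr zinc finger factors and Nr4a orphan nuclear receptors are immediate early genes of the same stimulus, and the HMG-box factor Tox is known from lasting stimulation. NFAT without AP-1, Egr2, Egr3, the Nr4a receptors and Tox are also known from T cell anergy, exhaustion and, for Nr4a, from the induction of Foxp3.

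Sequences are shown for 4 of these regions, each as 200 bases around the region's centre, read from the RefSeq copy of GRCm38 (mm10). They are the Nr4a1 promoter, the highest-ranked distal regions of Nr4a1 and Nr4a3, and a Tox region with peaks in 1 condition only. The Nr4a1 promoter was chosen because it holds matches to the core of an element of stimulus-responsive genes. Capitals mark matches on either strand to TGACG (the core of the cyclic AMP response element, CGTCA on the other strand) or to GGAAA (the NFAT core, TTTCC on the other strand).
Nr4a1 promoter, chr15:101266605-101266804, plus strand: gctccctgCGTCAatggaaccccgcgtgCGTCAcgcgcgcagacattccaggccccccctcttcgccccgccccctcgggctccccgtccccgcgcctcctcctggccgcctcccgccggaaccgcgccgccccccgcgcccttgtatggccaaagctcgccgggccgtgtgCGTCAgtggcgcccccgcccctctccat
Nr4a1 distal region, chr15:101246392-101246591, plus strand: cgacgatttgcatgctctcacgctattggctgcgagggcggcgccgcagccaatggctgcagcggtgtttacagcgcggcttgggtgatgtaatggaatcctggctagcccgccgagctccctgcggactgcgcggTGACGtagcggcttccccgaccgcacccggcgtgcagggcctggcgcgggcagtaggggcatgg
Nr4a3 distal region, chr4:48043117-48043316, plus strand, with no match: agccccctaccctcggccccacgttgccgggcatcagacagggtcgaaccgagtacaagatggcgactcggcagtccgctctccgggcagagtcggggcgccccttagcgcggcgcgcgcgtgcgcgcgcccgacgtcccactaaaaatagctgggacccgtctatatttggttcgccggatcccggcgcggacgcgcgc
Tox region called only with IL-4, chr4:6897451-6897650, minus strand: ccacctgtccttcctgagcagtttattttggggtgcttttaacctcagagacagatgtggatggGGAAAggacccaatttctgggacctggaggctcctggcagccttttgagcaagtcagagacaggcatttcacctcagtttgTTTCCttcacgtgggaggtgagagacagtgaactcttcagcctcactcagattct

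The 4 peak lists differed in length. The iTreg lists held 77064 and 56645 peaks (replicates 1 and 2), the iTreg+IL-4 lists 78670 and 67743, and the number of reads behind them is unknown. The iTreg replicate 2 list was the shortest, and the counts that moved most without it are given with and without it. Because neither the q-values nor the heights were scaled between libraries, the strength of a peak is given as its percentile, the percentage of peaks in its own list with a lower −log10 q. The labelled cell type was checked at promoters. All 8 CD4+ T cell markers tested (among them Cd3e, Cd4 and Lck) had a promoter peak in all 4 libraries, as did Il2ra, Ctla4 and Ikzf2, whereas Foxp3 had one only in iTreg+IL-4 replicate 2, at percentile 12.2. Of 21 markers of other cell types, 6 had a promoter peak in all 4 libraries (among them Cd8b1, Cd14, Flt3 and Epcam) and 8 in none (among them Cd79a, Lyz2, Ncr1 and Krt8). Their part in the results was not tested.

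All 10 genes had a promoter region with a peak in all 4 libraries, against 59.9% of 20484 protein-coding genes. Of the 17 promoter regions, 16 were called in every library. The exception was a second region beside an Nr4a2 start (chr2:57115656-57116076), called in iTreg replicate 2 alone at percentile 11.5. The promoters were thus open at these genes under both conditions, and what varied was their rank. Within each library the median percentile of the 16 shared promoter regions lay between 76.4 and 79.9, below that of all 15003 shared promoter regions, whose medians lay between 82.7 and 86.

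The NFAT genes, which encode the calcineurin-dependent factors themselves, covered nearly the whole range. The Nfatc3 promoter (chr8:106058577-106060128) was the highest-ranked promoter region of the 10 genes, at percentiles 99.1 and 98 in the iTreg libraries and 98.3 and 98.9 in the iTreg+IL-4 libraries. The values of both conditions overlapped. Nfatc1 is transcribed from an inducible upstream promoter, P1, and from a downstream promoter, P2. The region at the upstream start (chr18:80712390-80713283) stood at 71.2 and 53.4 without IL-4, against 55.8 and 44.9 with IL-4, with means of 62.3 and 50.3. The conditions overlapped by these percentiles, but when regions were ranked only against the regions shared by all 4 libraries the region was lower in both IL-4 libraries (53.7 and 45.4 against 30.9 and 25.5). By the limma test described below the change was −0.31 ± 0.23 (SE) normal-score units, with an adjusted p of 1. The region at the downstream start (chr18:80707104-80708629) stood at 79.4, 82.5, 81.3 and 83.4 in the order iTreg 1, iTreg 2, iTreg+IL-4 1 and iTreg+IL-4 2. It was above the upstream region in every library. A further Nfatc1 region, 1.5 kb upstream of the first start by its centre (chr18:80713936-80715175), was at 75.4, 76.8, 81.1 and 76.7.

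Nfatc2, which encodes the NFAT protein already present in resting T cells, also had 2 promoter regions. The region at the internal start (chr2:168589216-168591588) was at 78.4, 75.9, 78.8 and 76.7 in the same library order. The region at the upstream start, centred on a coding exon (chr2:168601223-168601749), was weak, at 35.5, 18.5, 33.3 and 25.5. By these percentiles both regions overlapped between the conditions. Ranked among shared regions alone, the upstream region was lower in both IL-4 libraries by a small margin (12.1 and 9.91 against 9.87 and 9.41).

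Among the Nr4a receptors, the Nr4a1 promoter shown above (region chr15:101266243-101267167) ranked highest, at percentiles 96.4 and 93.5 without IL-4, against 96.8 and 95.6 with IL-4. Nr4a1 encodes Nur77, a widely used reporter of receptor signal strength. The region at the upstream Nr4a1 start (chr15:101253687-101254366) was at 83.7, 82.9, 81.4 and 83.3, and a small region 0.9 kb inside the gene (chr15:101267579-101267915) at 12.5, 18.5, 17.6 and 20.4. Nr4a3 had 1 promoter region (chr4:48044601-48045389), at 80.5, 76, 78.3 and 76.6. The promoter regions of Nr4a2 were at 80.6, 67.8, 77.5 and 75.6 (chr2:57114198-57115610) and at 74.1, 65.3, 74.6 and 68 (chr2:57123437-57124434). In both Nr4a2 regions the lowest value was that of iTreg replicate 2, and in every one of these Nr4a promoter regions the conditions overlapped by these percentiles. Ranked among shared regions alone, the Nr4a3 promoter was lower in both IL-4 libraries (68.6 and 71.7 against 64.4 and 66.9) and the others overlapped.

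Egr1 and Egr2, immediate early genes whose products induce regulators of receptor signalling, had promoters of nearly equal rank. The Egr1 promoter (chr18:34859847-34861786) was at 93.6, 94.6, 94.4 and 94.9, and the Egr2 promoter (chr10:67536639-67537976) at 93.5, 95.2, 93.5 and 93.4. The Egr3 promoter (chr14:70076598-70077084) was at 84.2 and 81.8 without IL-4, against 84.3 and 84.5 with IL-4. It was the only one of the 16 whose percentiles did not overlap between the conditions, by a difference in means of 1.39. Ranked among shared regions alone its values overlapped. The Tox promoter (chr4:6989845-6991601) was at 72.5, 69.5, 71.2 and 74.6, with overlap.

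**Figure D1:**
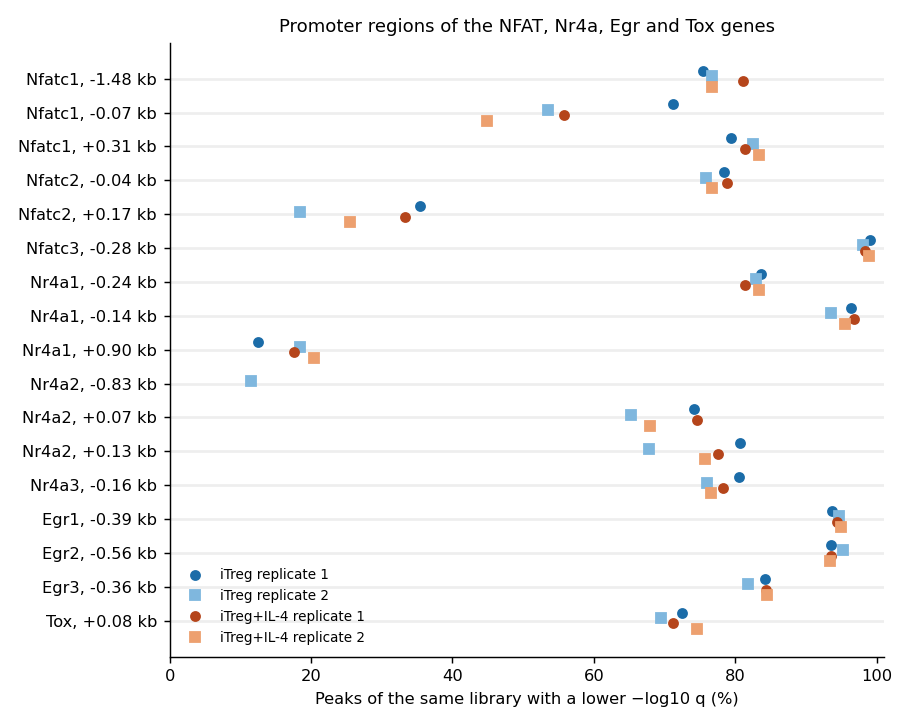
Percentile within its own peak list (x axis, percent of peaks with a lower −log10 q) of each promoter region of the 10 genes, labelled by the distance of its centre from the nearest start of the gene in kb, with 1 point per library. The points of the 2 conditions interleave in most rows; the Nfatc3, Egr1 and Egr2 promoters and the highest of the Nr4a1 regions lie at 93.4 or above in every library, and 1 Nr4a2 region has a single point, at 11.5.

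Distal openness was spread unevenly. Of the 154 distal regions, 78 (50.6%) had a peak in all 4 libraries, against 44.1% of the 74278 distal regions in the genome. Without iTreg replicate 2, 95 of the 154 (61.7%) had a peak in the remaining 3 libraries, against 55.4%. Of these 78, 45 lay inside the gene records and 33 in the flanks. Their median percentiles were 61.9 and 47.5 in the iTreg libraries and 67 and 58 in the iTreg+IL-4 libraries. For all 32764 shared distal regions the medians were 62.4, 48.8, 63 and 57.4.

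Counted per length, Nfatc1 was the densest locus, with 13.2 shared regions per 100 kb, more than at 97.2% of protein-coding genes. Nr4a1 followed with 12.4 and Egr1 with 11. Egr3 (9.19), Nfatc2 (9.18) and Egr2 (8.86) were close to each other, and Nfatc3 (6.07), Tox (5.2) and Nr4a3 (4.93) were lower. Nr4a2 had the lowest density, 3.89, a value exceeding that of 53.9% of protein-coding genes. All 5 regions of the Nr4a2 locus lay at the gene itself and neither 30 kb flank held a peak in any library.

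The strongest distal region lay 7.8 kb upstream of the nearest Nr4a1 start (chr15:101246139-101246844, shown above). Its percentiles were 99.6 and 99.1 without IL-4, against 99.5 and 99.2 with IL-4, higher in each library than those of the Nr4a1 promoters. RefSeq starts were not searched at the Nr4a1, Nr4a2, Nfatc2 and Nfatc3 loci. At the other loci none, known or predicted, lay within 1 kb of a shared distal region. Other Nr4a1 regions at 13.3 kb upstream and 4.4 kb inside the gene had mean percentiles of 83.3 and 81.

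Nr4a3 had a comparable region 1.9 kb upstream of its start (chr4:48042616-48043818), which ranked above its promoter in every library. It was at 95.9 and 95.3 without IL-4, against 92.4 and 94.1 with IL-4. Both iTreg+IL-4 values were below both iTreg values, here and when ranked among shared regions, with a difference in means of −2.37 and an adjusted limma p of 1. A further shared Nr4a3 region lay 29.9 kb downstream of the start, inside the gene, at a mean percentile of 85.3.

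The best distal region of Egr1 lay 26.2 kb downstream of the start, in intergenic DNA (chr18:34886981-34887800), at 94.4, 91.3, 94.6 and 93.7, with overlap by percentile and none when ranked among shared regions (91 and 89.7 against 91.1 and 91.1). Egr3 had its best one 2.0 kb upstream (chr14:70074493-70075967), at 86.7, 80.2, 86.8 and 86.4. Egr2 differed from both, because its 4 shared distal regions were weak, with a median of 42.3 and a highest mean of 51.1, although its promoter ranked close to that of Egr1.

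Over all loci, 103 of the 154 distal regions were centred on an intron and 49 on intergenic DNA, and the best ones of Nfatc1, Nfatc2 and Tox were intronic. The best one of Nfatc2 (chr2:168574808-168575619) was at 91.6, 88.6, 91.7 and 90.5, and that of Nfatc1 (chr18:80611208-80612615), 96.3 kb from the nearest Nfatc1 start, at 92.3, 87.2, 91.8 and 89.5. The best Nfatc3 region lay 4.3 kb upstream (chr8:106054154-106054837), at 83.6, 77, 82.9 and 81.3. The 17 shared distal regions of Tox had a median percentile of 53.2, and the best, in an intron 20.1 kb from the start (chr4:6970402-6970958), was at 84.8 and 84 without IL-4, against 85.4 and 88.2 with IL-4. That Tox region did not overlap between conditions by percentile and did overlap when ranked among shared regions. The 1 shared distal region of Nr4a2 (chr2:57116081-57117105), was at 61.5, 39.5, 53 and 38.7, with overlap by percentile, and lower in both IL-4 libraries when ranked among shared regions (39.4 and 29.9 against 27.5 and 19.5).

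**Figure D2:**
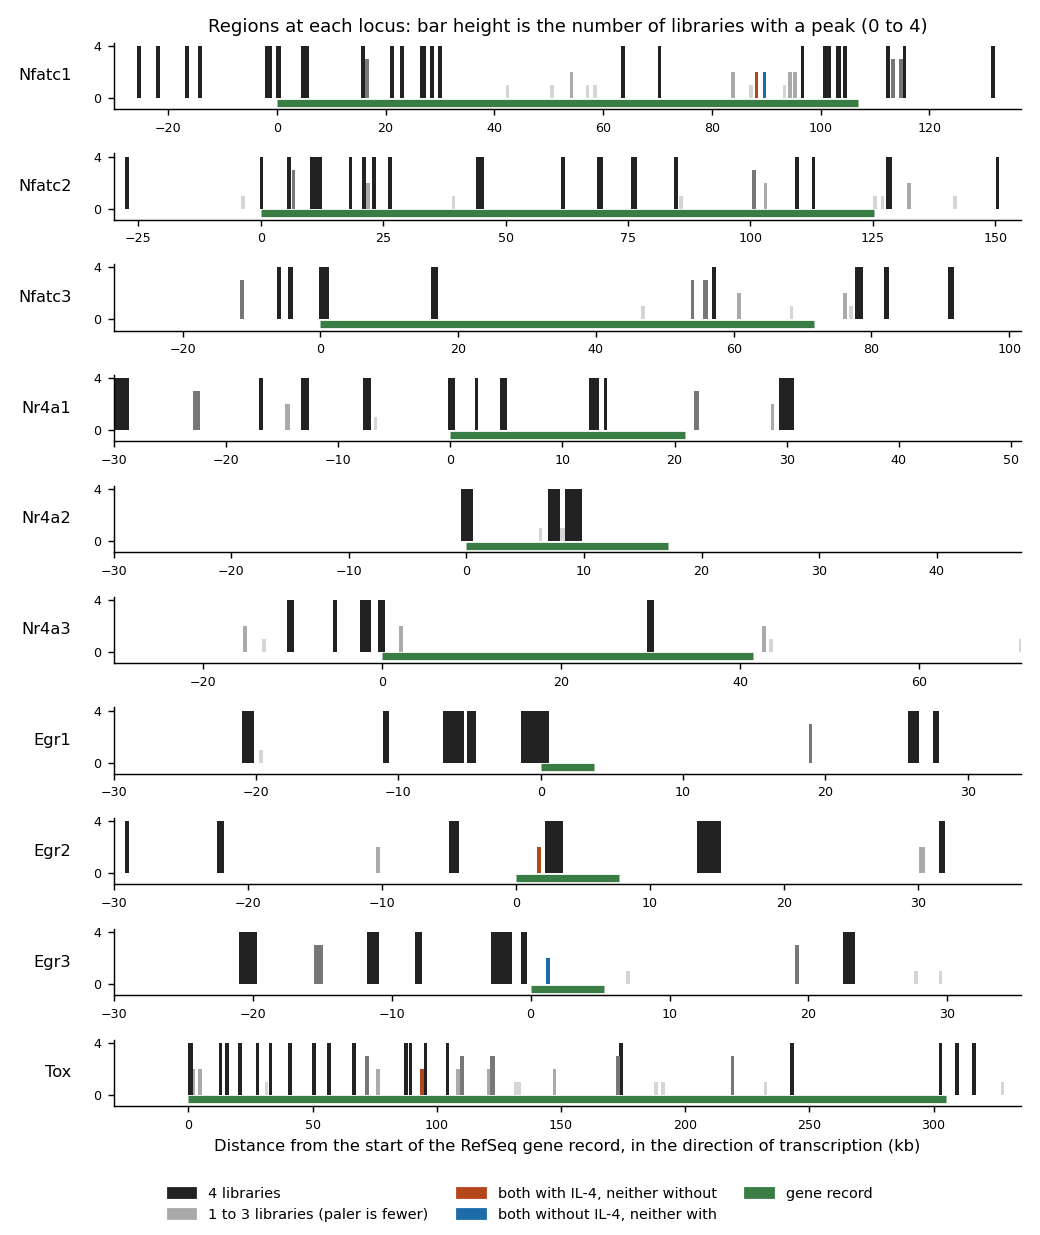
Regions of each locus by distance from the start of the RefSeq gene record in kb (x axis, in the direction of transcription, a separate scale for each gene); bar height is the number of libraries with a peak, narrow regions are widened to remain visible, and the green line is the gene record. Black bars, called in all 4 libraries, cluster around the starts and in the introns of Nfatc1, Nfatc2 and Tox, and the Nr4a2 flanks are empty.

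Regions called in some libraries only were most often those missing from the shortest list or found in 1 library. The loci held 160 and 112 regions in the iTreg libraries and 150 and 133 in the iTreg+IL-4 libraries. Of the 181 regions, 103 were called in all 4 libraries, as were 47767 of all 93679 merged regions. Another 32 were called in 1 library (16 of them in iTreg replicate 1), 22 in 1 library of each condition and 19 in 3 libraries. Of those 19, 17 lacked a peak only in iTreg replicate 2. At Tox the distal counts were 32 and 18 without IL-4, against 31 and 26 with IL-4.

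**Figure D3:**
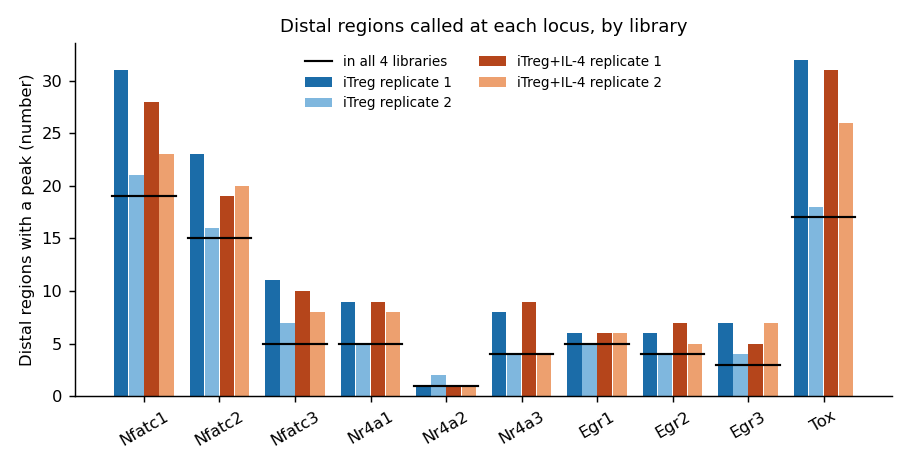
Number of distal regions with a peak (y axis) at each locus in each library, with a black line at the number called in all 4 libraries. The iTreg replicate 2 bar is the lowest, or level with the lowest, at every locus but Nr4a2, where it is 2 against 1, and at Tox the bars range from 18 to 32.

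Few regions were restricted to a condition. Only 3 of the 181 regions had peaks in the pair of iTreg+IL-4 libraries but none in the iTreg pair, while 2.6% of all merged regions did. The opposite pattern held for 2 of the 181, against 0.699% of all regions. Without iTreg replicate 2 the count of regions called only without IL-4 was 18 (9.94%, against 8% of all), and without iTreg replicate 1 the count of regions called only with IL-4 was 20 (11% against 12.6%).

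The Egr2 region (chr10:67536063-67536393) was at percentiles 46.7 and 15.7, the highest of the 3 called only with IL-4 in replicate 1 but not in replicate 2. It lies upstream of the shared Egr2 promoter, and although no GENCODE basic start is within 1 kb, a predicted RefSeq start of Egr2 (67536095) and a predicted start of Gm32255 on the opposite strand (67536180) fall inside it. Known RefSeq starts of Egr2 lie 564 and 818 bases from it. The Tox region (chr4:6897412-6897689, intronic, sequence above) was at 7.76 and 3.84, among the weakest peaks of its lists. The Nfatc1 region (chr18:80624610-80625138, intronic) was at 10.4 and 17.5.

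Both regions called only without IL-4 were weak. In the same Nfatc1 intronic stretch, the region chr18:80623219-80623527 was at 25.5 and 6.51, so Nfatc1 held a region of each kind within a short distance. The Egr3 region (chr14:70078455-70078738) was at 10.2 and 6.63 and lay 660 bases from a known RefSeq start of Egr3. Every percentile of these 5 regions was below 50, so limiting the lists to their upper 50% necessarily removed them. In those lists 3 other regions were called only with IL-4 (3.37%, against 2.1% of all) and 0 only without (0.31% of all). With lists cut to equal length none of the 5 kept its pattern, each being called in 1 library or in none.

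The bases inside peaks, summed over the 10 loci, were 88224 and 61324 without IL-4, against 86935 and 77653 with IL-4. The means were 74774 ± 19021 (SD, n = 2) and 82294 ± 6563 (SD, n = 2), so the difference of 7520 bases was smaller than the spread between the iTreg libraries, and it ranged from −5930 without iTreg replicate 2 to 20970 without iTreg replicate 1. At single loci an exact permutation test of 2 against 2 libraries cannot give a two-sided p under 0.33. Nr4a2 was the only locus at which the conditions did not overlap, with 3094 and 3121 bases against 3142 and 3271 (exact permutation p = 0.333, two-sided). Its difference in means was 99 bases, and 266 with lists limited to their upper 50%. At Nr4a3 the values were 4856, 3259, 4907 and 2932, and the mean difference of −138 bases was within the spread. It was 20.5 with lists limited to their upper 50% and −590.5 with lists of equal length.

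Among the 103 regions called in all 4 libraries, 28 had a higher percentile in both iTreg+IL-4 libraries than in both iTreg libraries, and 3 had a lower one. Over all 47767 shared regions these shares were 19.8% and 5.18%, against 27.2% and 2.91% here. The excess of higher over lower percentiles depended on the ranking. It remained with height in place of −log10 q, which gave 29 higher and 2 lower (28.2% and 1.94%, against 20.5% and 4.13% of all). When regions were ranked only among the 47767, 15 were higher and 15 lower, against 14.4% and 12.7% of all, and of these 13 and 3 had the same direction by the first ranking. Without iTreg replicate 2 the first ranking gave 43 higher and 47 lower of 120 regions shared by the other 3 libraries (35.8% and 39.2%, against 24.2% and 36% of all such regions). The median difference was 2.28 percentiles at these loci and 2.05 over all shared regions.

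By the first ranking, the 28 comprised 23 distal regions, 4 promoters of neighbouring genes and the Egr3 promoter. NFAT loci held 11 of them among 47 shared regions, Egr loci 8 of 19, Tox 6 of 19 and Nr4a loci 3 of 18. All 3 lower regions were distal, 2 of them at Nr4a3 and 1 at Tox. When ranked among shared regions, NFAT loci held 8 higher and 7 lower regions, Egr loci 5 and 0, Tox 2 and 3 and Nr4a loci 0 and 5. By that ranking 3 of the 15 lower regions were promoters, those of Nfatc1, Nfatc2 and Nr4a3 given above. Whether the families differ was not tested.

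**Figure D4:**
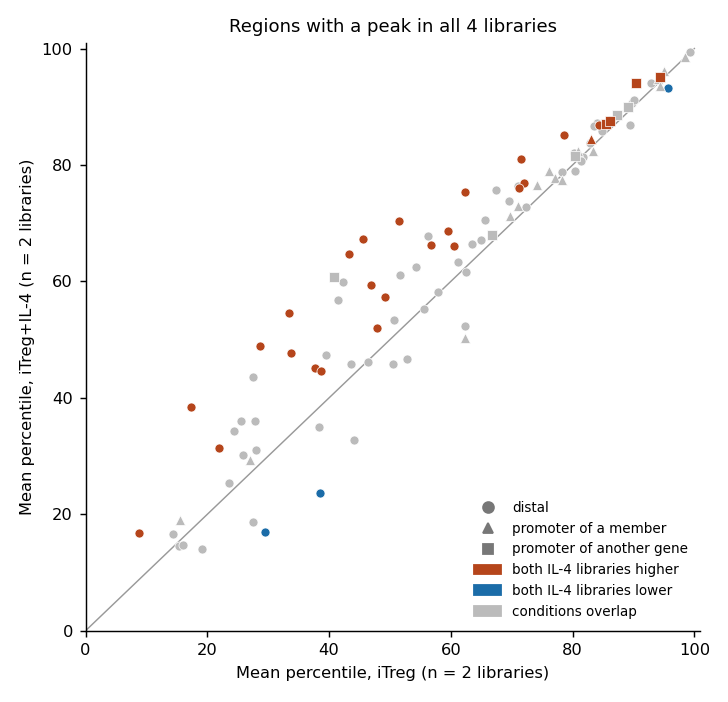
Mean percentile of the 103 shared regions in the iTreg libraries (x axis) and iTreg+IL-4 libraries (y axis), n = 2 libraries each, with the line of equality. The 28 regions higher in both IL-4 libraries lie above the line, mostly at low and middle percentiles, the 3 lower ones lie below it, and grey regions overlapped between conditions.

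The region with the largest difference lay in an Nfatc2 intron, 101.4 kb from the nearest start (chr2:168488613-168488955). It was at percentiles 47 and 44.2 without IL-4, against 68.1 and 66.4 with IL-4 (difference in means 21.7, pooled SD 1.66). The region was picked for the largest difference among regions that did not overlap, so this separation is not a test. A difference of like size was seen beyond the 3′ end of Tox (chr4:6674988-6675478), at 58.4 and 28 against 70.6 and 58.8, where the higher iTreg library nearly reached the lower iTreg+IL-4 library. The Egr2 region 32.4 kb upstream (chr10:67505311-67505590) was at 37 and 29.7 against 61.5 and 47.8.

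Also higher were an Nfatc1 intronic region (chr18:80682901-80683157), at 27.4 and 7.22 against 45 and 32, and a Tox intronic region 14.8 kb from the start (chr4:6975777-6976147), at 33.3 and 23.9 against 49.6 and 48.1. All 5 of these regions were also higher when ranked among shared regions. In the other direction, an Nr4a3 region 10.3 kb upstream (chr4:48034397-48035211) was at 37 and 39.9 without IL-4, against 27 and 20.3 with IL-4. A Tox intronic region 27.1 kb from the start (chr4:6963567-6963880) was at 32.1 and 27 against 18.5 and 15.3. The third was the Nr4a3 region 1.9 kb upstream of the start, given above.

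Differences were tested with limma on normal scores of the percentiles across all 47767 shared regions. No region passed an adjusted p of 0.05 at these loci or anywhere (0%), and the smallest adjusted p at the 10 loci was 1. At an unadjusted p under 0.05, 3 of the 103 regions were higher with IL-4 and 2 lower, while 2.37% of all shared regions passed in either direction. These counts were 17 higher and 0 lower without iTreg replicate 1 (16.5% against 14.5% of all), 4 and 0 without iTreg replicate 2 (2.74% of all), and 0 and 0 without iTreg+IL-4 replicate 1 (1.52% of all) or replicate 2 (1.07% of all). They were 4 and 6 when regions were ranked among shared regions alone (9.71% against 3.75% of all), and 1 and 0 with limma's trend and robust settings (1.16% of all). The 3 were the Nfatc2 region above, with a score difference of 0.56 ± 0.14 (SE), the Tox region 14.8 kb from the start (0.54 ± 0.17) and the Egr2 region 32.4 kb upstream (0.55 ± 0.19). The 2 were the Tox region 27.1 kb from the start (−0.42 ± 0.15) and the Nr4a3 region 10.3 kb upstream (−0.43 ± 0.16).

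Motifs were counted, on both strands, in a window of 200 bases centred on each shared region. The NFAT core GGAAA occurred in 41 of the 78 distal regions (52.6%, against 51.2% of 32707 shared distal regions on assembled chromosomes) and in 8 of the 16 promoter regions (50% against 39.2% of all). The AP-1 element TGANTCA occurred in 3 of 78 distal windows (3.85% against 13.8%) and in no promoter window (4.09% of all). Both motifs together were found in 1 distal window, or 1.28% against 7.1%. Outside the windows, further shared distal regions held AP-1 matches. Among them were regions of Nfatc2 (chr2:168524836-168525966) and Egr1 (chr18:34854339-34855809), with 3 each. Matches over whole regions were not compared with those of all regions. The full cyclic AMP response element TGACGTCA was found in 1 of 78 distal windows (1.28% against 0.437%) and in no promoter window (1.49% of all). Its TGACG core was found in 17 of 78 distal regions (21.8% against 9.98%) and in 4 of 16 promoter regions (25% against 20.1%). Among the latter are the 3 matches of Nr4a1 printed above. The RUNX element TGTGGTT was present in 6 distal regions (7.69% against 10.5%).

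CArG boxes, which serum response factor binds at immediate early genes, were found in 2 of the 16 promoter regions (12.5% against 0.58% of all), those of Egr1, with 3 matches, and Egr3, with 1. The Egr2 promoter region held 2 matches outside its window. The NR4A element AAAGGTCA was found in 1 distal region, at Tox (1.28% against 1.35%). The EGR element GCGTGGGCG was found in none of the distal or promoter windows (0.144% of all distal and 0.807% of all promoter regions). Outside its window, the best distal region of Egr3 held 2 matches. A pair of TTC and GAA separated by 4 bases, the form STAT6 binds, was found in 4 of 78 distal regions (5.13% against 6.17%), at Nfatc1, Nfatc3, Nr4a3 and Egr3, and in none of the windows of the 5 regions restricted to a condition. Outside its window, the Nfatc1 region called only with IL-4 held 1 match. TGACG and the CArG box were added to the search after the sequences had been seen.

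The other genes of the pathway were read at their promoters. Of 32 genes, 30 had a promoter peak in all 4 libraries, against 59.9% of 20484 protein-coding genes. These included all 14 of the calcium and calcineurin branch (such as Stim1, the calcium sensor of the endoplasmic reticulum, and Rcan1, an inhibitor of calcineurin), all 7 of the ERK to Egr branch (such as Srf and the Egr co-repressors Nab1 and Nab2) and all 5 targets known in anergy (such as Cblb and Dgka). The exceptions were the paralogues Nfatc4, with no promoter peak in any library, and Tox3, with a peak in iTreg replicate 1 (24.3) and iTreg+IL-4 replicate 2 (0.102). Of their 41 promoter regions, 33 were shared by all 4 libraries. Of these, 4 had a higher percentile in both iTreg+IL-4 libraries (12.1%, against 19.9% of all 15003 shared promoter regions), at Stim1, Rcan1, Srf and Dgkz. Another 6 had a lower one (18.2% against 5.58%), at Stim2, Csnk1a1, Nab1, Tox2, Dgka and Dgkz. Margins could be small in both directions. Stim1 was at 90.5 and 91.1 without IL-4, against 91.8 and 91.5 with IL-4, and Tox2 at 84.4 and 84 against 83.9 and 81.2. These counts were not repeated with the ranking among shared regions. None passed the limma threshold.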

How the data were processed

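ATAC-seq peak lists of 2 iTreg and 2 iTreg+IL-4 libraries, grouped by the treatment label, were used. The authors sequenced on BGISEQ-500, kept mapped pairs and called peaks per library on mm10; the submitters' processing notes name Bowtie2 2.2.5, MACS2 2.1.2 and bedtools 2.16.2. Duplicate removal and a correction for the transposase offset are not given in the sources used here. The 2 value columns were read, from their values, as the deposited −log10 of the q-value and the deposited height of the pileup signal. Reads were not analysed, so depth is unknown, and no count test was possible. The paper describes the samples as pooled and biologically independent, but the labels do not tie libraries to animals, so the spread may be partly technical.

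Lists were merged where peaks shared 1 base. Gene records came from RefSeq (GRCm38) and start sites from GENCODE M21 (basic). limma 3.58.1 (R 4.3.3) was fitted to normal scores of the percentile over all shared regions, with Benjamini-Hochberg adjustment, and was tested on simulated data. Python 3.11.15, pandas 2.3.3, numpy 2.4.6, pysam 0.24.0 and matplotlib 3.10.9 were used.

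Members, gene lists and tests were chosen with earlier results of these data known. Named were each member's promoter regions, regions called in 1 condition only, the 5 shared regions with the largest non-overlapping difference in each direction (3 existed among the lower ones), each member's best distal region, and pathway genes lacking a promoter peak in 1 or more libraries or past the limma threshold. Pathway genes with non-overlapping percentiles were named after their values were seen. Alternatives were lists cut to their upper 50% or to equal length (56645 peaks), reciprocal overlap of 50%, flanks of 10 and 50 kb, promoter windows of 0.5 and 2 kb, height for −log10 q, ranking among shared regions, a replicate block and leaving out each library. GENCODE gene records and the comprehensive GENCODE starts were added after seeing the data. Some marker genes and sequences are not reported here.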

Additional observations from a re-analysis of the deposited data

How the results depend on the processing

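The counts of regions called in 1 condition and of non-overlapping percentiles depended most on single libraries. Leaving out each library in turn gave 3 to 20 regions called only with IL-4, 2 to 18 called only without, 36 to 75 higher and 5 to 47 lower. Without iTreg replicate 1, 75 were higher and 6 lower (72.8% and 5.83%, against 70.9% and 9.93% of all). Without iTreg+IL-4 replicate 1 or 2, 36 and 53 were higher (35% and 50.5%, against 30.2% and 48.4% of all) and 10 and 9 were called only with IL-4 (5.52% and 4.97%, against 6.6% and 10.6%). In the same order, 17 and 5 were lower (16.5% and 4.76%, against 17.8% and 12.5%) and 4 and 2 were called only without (2.21% and 1.1%, against 2.94% and 1.44%). Without iTreg replicate 2, 3 were called only with IL-4 (1.66% against 3.33%). Without iTreg replicate 2, 120 regions were called in the remaining libraries. Limited to the upper 50% of each list, 57 regions (36 distal) were called in all 4 libraries (64%, against 60.4% of all), 3 only with IL-4 and 0 only without. Lists of equal length gave 1 only with IL-4 and 3 only without (0.671% and 2.01%, against 1.92% and 1.03% of all). None of these was among the 5 regions named above as restricted to a condition. Reciprocal overlap of 50% gave 5 and 1 (2.76% and 0.552%, against 3.64% and 0.859%). Ranking among shared regions gave 15 higher and 15 lower. Libraries with the same number deviated together (correlation of deviations 0.45), but the labels name no shared source. Comparing percentiles only between libraries of the same number, a laxer rule, gave 47 higher and 10 lower (45.6% and 9.71%, against 43.4% and 12.3% of all shared regions). A limma fit with the replicate block called 0 regions, with 5 higher and 2 lower unadjusted (6.8% against 6.45% of all). limma called 0 regions at these loci and genome-wide in every setting run with 2 libraries per condition. In fits with 1 library left in a condition, that condition was assumed to vary like the other. Unadjusted, the main fit had 873 higher and 259 lower genome-wide, and ranking among shared regions gave 1067 and 724. The median score difference over all shared regions was 0.0844 in the main fit. Leaving out single libraries, it ranged from −0.0441 without iTreg replicate 2 to 0.205 without iTreg replicate 1. All 10 members kept an open promoter with lists cut to their upper 50% or to equal length and with each library left out. The same held for promoter windows of 0.5 and 2 kb and for the comprehensive GENCODE starts. This count was not run for reciprocal overlap, other flanks or GENCODE gene records. The difference in bases was −5930 without iTreg replicate 2, 20970 without iTreg replicate 1, and 2879 and 12161 without iTreg+IL-4 replicates 1 and 2; it lay between 4929 and 7520 under the other alternatives run.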
